A study of Mus with 4 samples.

Results

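ATP-dependent chromatin remodellers are multi-subunit machines whose motor subunit spends ATP to slide, evict or exchange nucleosomes. Their genes are followed here in PPS-ICBR, a prostate cancer cell line that the labels assign to the C57Bl6 mouse strain. The members were all probe sets of the array whose single annotated gene symbol begins with Smarc, Arid1 to Arid5, Chd or Ino80, or is one of a fixed set of further remodeller genes (Bptf, Baz1a, Baz1b, Baz2a, Pbrm1, Brd7, Brd9, Hells, Atrx, Ep400, Srcap, Ruvbl1 and Ruvbl2). Chd3 and Chd4 were outside the rule. It gave 129 of the 45037 probe sets tested, which stand for 49 of the 18193 genes with 1 symbol. The study profiled total RNA on 4 Affymetrix mouse expression arrays. On 2 arrays the cells had been kept overnight with 5 µM vorinostat in DMSO, and on the other 2 they had received only the solvent (5 µL DMSO per 10 mL medium). Both groups are the same single cell line, plated at 60% confluency, and the labels name no genetic change in it and leave unsaid if separate cultures were used for arrays of 1 group. The p-values therefore rest on the spread of these 4 samples alone, and that spread may be technical.

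Vorinostat inhibits histone deacetylases, which is known to raise histone acetylation, and several remodellers carry bromodomains, modules that bind acetylated lysine. The main motor families are SWI/SNF, ISWI, CHD and INO80, and each motor works with partner subunits that choose where it acts. SWI/SNF comes in canonical, polybromo-associated and non-canonical assemblies, ISWI motors space nucleosomes, and the INO80 and SRCAP complexes act on nucleosomes with the histone variant H2A.Z. Arid3, Arid4 and Arid5 proteins share a DNA-binding domain with the SWI/SNF subunits Arid1 and Arid2 but are not known as subunits of a remodeller, and Ino80dos is annotated as a transcript opposite to a gene of the INO80 group. These 7 genes met the symbol rule and are described apart from the other 42.

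The values are the deposited log2 expression values, so that a change of 1 is 2-fold. Each gene is represented by its brightest probe set (by the mean of all 4 arrays), levels are not compared between genes, and every change is vorinostat minus DMSO. A gene is said to have fallen or risen where limma's adjusted p, over all 45037 probe sets, was under 0.05, and SE is the standard error of the change. Between the 2 vorinostat arrays 9 probe sets were more than 2-fold apart, and between the 2 DMSO arrays 16, with 0 and 0 of the member probe sets among them. The cells expressed the epithelial keratins Krt8 (11.11 and 11.40 with vorinostat, 12.25 and 12.36 with DMSO) and Krt18, the prostate transcription factor Hoxb13 and also the fibroblast collagen Col1a2, at 12.40 and 12.53 with vorinostat and 12.67 and 12.68 with DMSO. Probasin (Pbsn), a secretory product of mouse prostate, lay near background on all 4 arrays, meaning no more than 1 log2 unit above the highest of the bacterial tryptophan controls. Of 10 prostate epithelial markers measured, 2 fell and 1 rose (summed log2 level 70.3 to 71.2 with vorinostat, 72.1 to 72.3 with DMSO). Of 8 fibroblast markers 2 fell (Pdgfrb -2.49 and Col3a1 -0.89) and 2 rose (Pdgfra 1.54 and Dcn 1.26), while Lum and Thy1 lay near background in both groups. The summed log2 level of the fibroblast markers was 58.8 to 60.3 with vorinostat and 60.5 to 61.2 with DMSO. None of 6 endothelial markers passed (0, with 4 near background). Of 6 leukocyte markers 1 fell and 1 rose, and 3, among them Ptprc, lay near background in both groups. Cd14 fell by 1.67 (5.79 and 6.31 with vorinostat, 7.73 and 7.73 with DMSO) and Cd3e rose by 0.43. Csf1r, above background, did not pass (0.18). The part of these markers in the changes below was not tested.

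More remodeller genes fell than rose with vorinostat. Of the 49 genes, 28 fell, 4 rose and 17 did not pass, whereas 18.9% of all genes fell and 20.9% rose (39.9% called in either direction). The falls were 57.1% of the members, with a median change over the 49 genes of -0.48 against 0.03 over all genes. Without the other ARID genes and Ino80dos, 28 of 42 fell (66.7%) and 3 rose (7.14%), with a median of -0.53. Among genes above the median probe set level, where 46 of the members lay, 60.9% of the members fell against 28.2% of all such genes, and 8.70% rose against 28.7%. A fall of at least 2-fold was found in 12 members, against 6.17% of all genes, and a rise of that size in 1, against 5.74%. The 2 groups of arrays were separated in 44 of the 49 genes, a measure that 68.9% of all genes meet. In RNA from whole cultures, less RNA per cell and fewer cells of a kind cannot be told apart. With each array left out in turn, 18 to 22 genes fell, with the fewest (18) without Vorinostat 1, and 3 to 4 rose. Each of these fits left 1 array in a group, and in each fewer of all genes fell and fewer rose too. The median change of the 49 genes was -0.53 to -0.45 in them. The count also depended on the scale. With arrays scaled on 7 reference genes, which adds 0.37 to every change, 19 of the 49 genes fell and 15 rose, with a median of -0.11. On that scale 11.3% of all genes fell and 62.3% rose, with a median of 0.40. Of the 28 genes that fell, 9 lost their call on that scale, and their scaled values are given with each of them. Of the 7 reference genes, Gusb and Polr2a themselves fell. Without them the mean change of the other 5 was -0.08, and 27 members fell and 8 rose, in an alternative added after the data were seen.

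**Figure D1:**
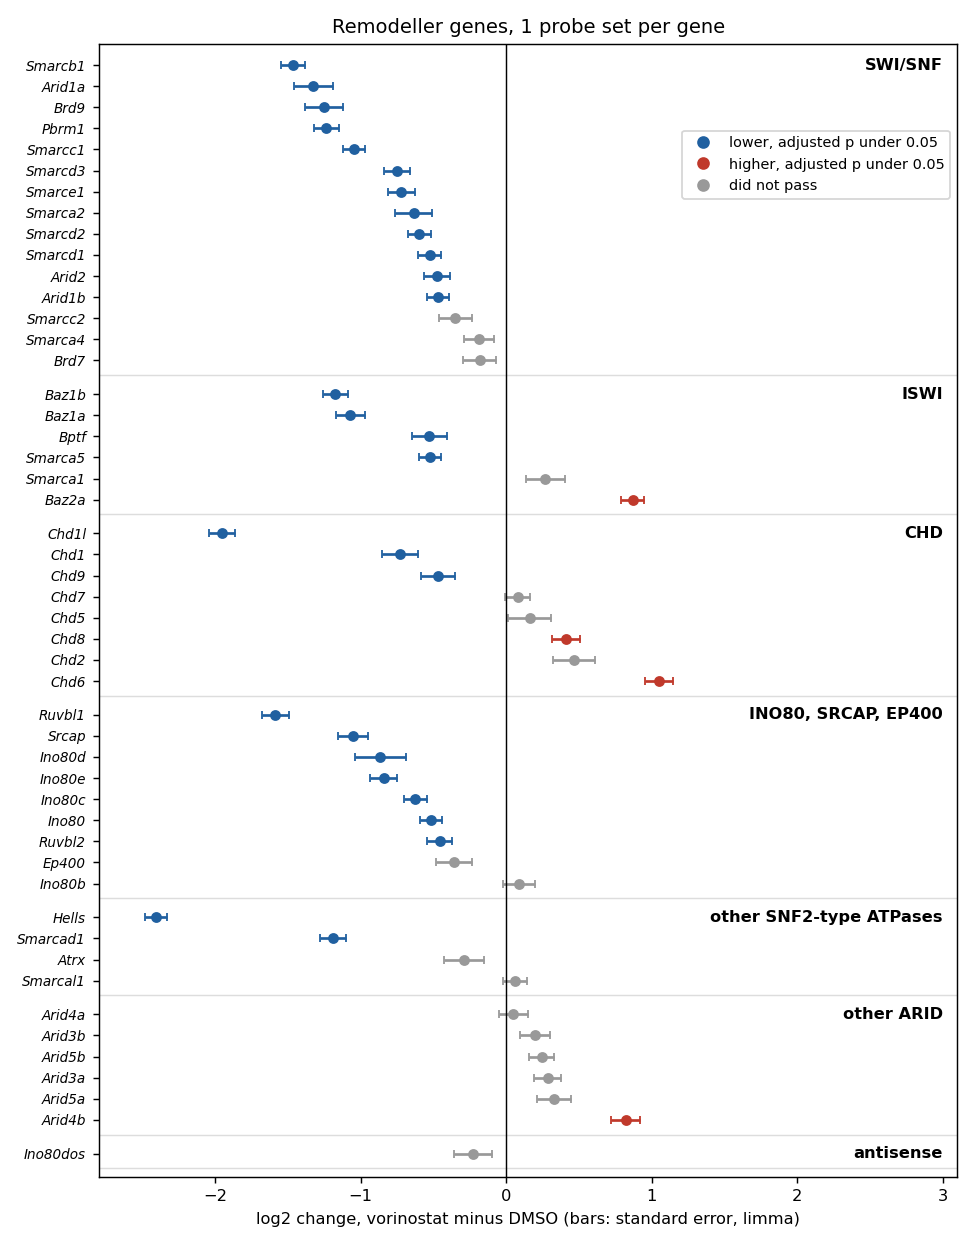
Log2 change (vorinostat minus DMSO) with its standard error for the 49 remodeller genes, grouped by family and coloured by the limma call. All 15 SWI/SNF genes lie below 0 (Brd7, Smarca4 and Smarcc2 not when scaled on reference genes). The 8 genes with a Chd symbol reach from -1.95 (Chd1l) to 1.05. The 6 other ARID genes lie above 0, with 1 of them called.

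Hells, an SNF2-type ATPase required for normal DNA methylation, fell most. It measured 7.78 and 7.81 in vorinostat arrays and 10.21 and 10.20 in DMSO arrays, a 5.30-fold lower level (change -2.41, SE 0.08, adjusted p = 0.00016). The arrays of each group lay close together, far from those of the other group. Both other Hells probe sets also fell (changes of -1.65 and -1.74), the dimmest to near background with vorinostat. Next came Chd1l, a remodeller that poly(ADP-ribose) recruits to damaged DNA, with 5.78 and 5.65 under vorinostat and 7.70 and 7.64 under DMSO (3.87-fold lower, change -1.95, SE 0.09, adjusted p = 0.000225). The third was Ruvbl1, an AAA+ ATPase shared by the INO80, SRCAP and TIP60 complexes, at 7.83 and 7.68 with vorinostat and 9.38 and 9.31 with DMSO (3.01-fold lower, change -1.59, SE 0.09, adjusted p = 0.000334). All 3 genes passed without any one of the 4 arrays.

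In the SWI/SNF family 12 of 15 genes fell (80%) and 0 rose, with a median of -0.64. Of all genes above the median probe set level, where all 15 lay, 28.2% fell and 28.7% rose. The 3 that did not pass by limma, Smarca4, Smarcc2 and Brd7, also lay below 0, though above it (0.18, 0.02 and 0.19) when arrays were scaled on reference genes, and 1 of them, Smarcc2, had an unadjusted p under 0.05 (0.0249). No SWI/SNF gene rose in any of the 14 alternative analyses, in which 8 to 13 of the 15 fell.

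Of the alternative ATPases of the family, 1 of 2 fell. Smarca4, which encodes the motor BRG1, measured 8.80 and 8.99 in vorinostat arrays and 9.14 and 9.02 in DMSO arrays. The groups did not overlap, but the change of -0.18 (SE 0.10, 95% confidence interval -0.45 to 0.08) had an adjusted p of 0.251 and turned to 0.18 when the arrays were scaled on reference genes. Its second probe set was at -0.30 (adjusted p = 0.0578). Smarca2, which encodes the alternative motor BRM, measured 5.86 and 5.65 with vorinostat and 6.52 and 6.27 with DMSO and fell by 0.64 (SE 0.13, adjusted p = 0.0146). That call was lost without any one of the 4 arrays (-0.76 to -0.51) and under reference scaling (-0.27, adjusted p = 0.0825), and a second, dimmer probe set of Smarca2 was at 0.14 (adjusted p = 0.349).

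Among the subunits shared by several SWI/SNF assemblies, Smarcb1 fell most. This core subunit, lost in rhabdoid tumours, had 7.41 and 7.33 with vorinostat and 8.88 and 8.79 with DMSO (2.76-fold lower, change -1.47, SE 0.08, adjusted p = 0.000321), and a second probe set also fell (-1.02). Smarcc1, a scaffold of the complex, was at 7.90 and 7.93 under vorinostat and 8.95 and 8.97 under DMSO (change -1.05, SE 0.08, adjusted p = 0.000561), with 2 further probe sets that fell (-1.05 and -0.83). Its paralogue Smarcc2 was at -0.35 (95% confidence interval -0.64 to -0.06, adjusted p = 0.0703). The difference between the paralogues was not tested. All 3 paralogues of the Smarcd subunit fell, with changes of -0.75 for Smarcd3, -0.60 for Smarcd2 and -0.53 for Smarcd1, and so did the DNA-binding subunit Smarce1 (-0.72). Smarcd1 lost its call without DMSO 2 or Vorinostat 1 (-0.49 in both) and under reference scaling (-0.16, adjusted p = 0.166), and Smarce1 lost it without DMSO 1 (-0.72, adjusted p = 0.0519).

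Of the subunits that define an assembly, some fell in the canonical and polybromo-associated assemblies, and Brd9 fell in the non-canonical one. Arid1a, the subunit of the canonical assembly most often mutated in human cancer, measured 7.002 and 7.29 in vorinostat arrays and 8.57 and 8.38 in DMSO arrays (2.50-fold lower, change -1.32, SE 0.13, adjusted p = 0.00138), and its second probe set also fell (-0.97). Its alternative Arid1b also fell, with 7.14 and 7.14 under vorinostat and 7.64 and 7.59 under DMSO (change -0.47, SE 0.08), and passed only without DMSO 2 among the 4 omissions (-0.49 to -0.44) and not under reference scaling (-0.10, adjusted p = 0.3004). Pbrm1, the polybromo subunit with an array of bromodomains, was at 8.42 and 8.51 with vorinostat and 9.73 and 9.67 with DMSO (2.36-fold lower, change -1.24, SE 0.08, adjusted p = 0.000458). Its other 2 probe sets fell as well (-1.496 and -1.418). Arid2 and Brd7 belong to the same polybromo-associated assembly: Arid2 fell by 0.48, but passed only without DMSO 2 among the omissions (-0.53 to -0.42) and not under reference scaling (-0.11, adjusted p = 0.292), and Brd7 was at -0.18 (95% confidence interval -0.46 to 0.10, adjusted p = 0.286). Brd9, the bromodomain subunit of the non-canonical assembly, had 6.62 and 6.96 with vorinostat and 8.03 and 8.06 with DMSO (2.38-fold lower, change -1.25, SE 0.13, adjusted p = 0.00151). It has 1 probe set. Bicra and Bicral, also subunits of the non-canonical assembly, did not pass by limma (0.10 and -0.08, adjusted p = 0.524 and 0.484).

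**Figure D2:**
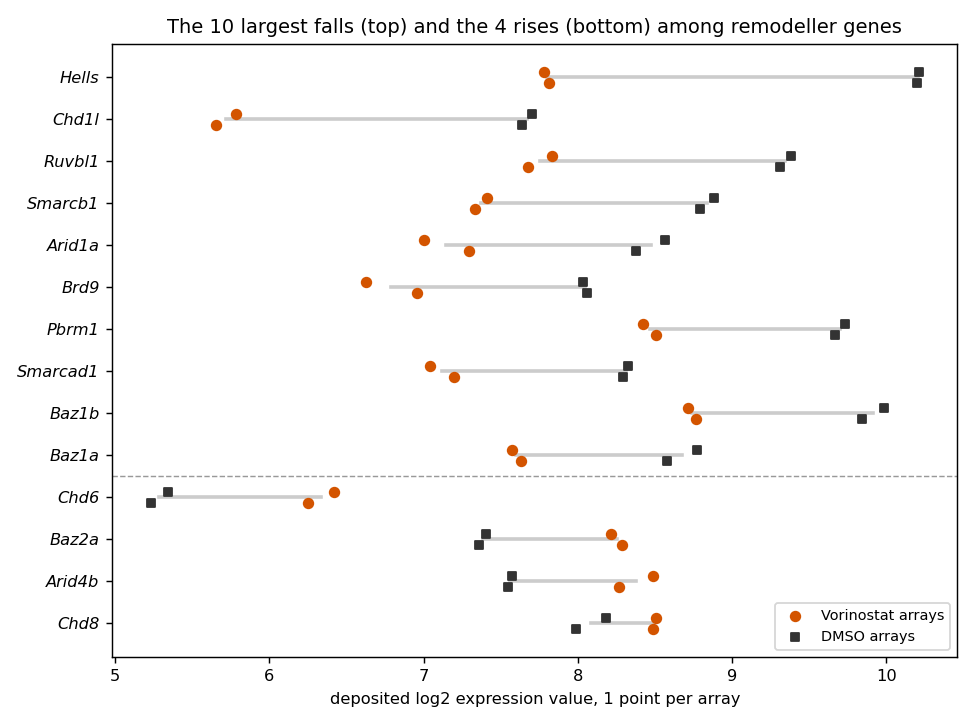
Deposited log2 value on each array (circles vorinostat, squares DMSO, grey bar between the group means) for the 10 remodeller genes with the largest falls and the 4 that rose. The genes run from Hells (7.78 and 7.81 against 10.21 and 10.20) to Chd8 (8.50 and 8.49 against 8.18 and 7.99). They were picked by their calls on these same arrays, so separation of the 2 groups adds no support. Of all genes, 68.9% are separated.

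In the ISWI family 4 of 6 genes fell and 1 rose, and without Vorinostat 1 only 2 fell. Of all genes 18.9% fell and 20.9% rose. The motor Smarca5, also called SNF2H, was at 10.31 and 10.30 with vorinostat and 10.85 and 10.81 with DMSO (change -0.52, SE 0.08, adjusted p = 0.0053). Its spread within groups was small, and 2 more probe sets fell (-0.64 and -0.66), although the call was lost without Vorinostat 1 (adjusted p = 0.051) and under reference scaling (-0.15, adjusted p = 0.139). The second ISWI motor, Smarca1, which is most abundant in brain, lay near background in both groups (2.92 and 2.60 with vorinostat, 2.42 and 2.57 with DMSO).

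The partners of ISWI motors moved in both directions. Baz1b, the Williams syndrome transcription factor, had 8.71 and 8.76 with vorinostat and 9.98 and 9.84 with DMSO (2.26-fold lower, change -1.17, SE 0.09, adjusted p = 0.000615). Baz1a, the ACF1 subunit of nucleosome-spacing complexes, was at 7.57 and 7.63 with vorinostat and 8.77 and 8.58 with DMSO (2.10-fold lower, change -1.07, SE 0.10, adjusted p = 0.00109), and its second probe set also fell (-1.10). Of the other 4 probe sets of Baz1b, 2 fell (-1.396 and -1.37) and 2 did not pass (-0.03 and 0.13). Both genes were separated by far more than the distance between arrays of a group. Bptf, the large subunit of NURF, fell by 0.53 and passed only without Vorinostat 2 among the omissions (-0.66 to -0.40) and not under reference scaling (-0.16, adjusted p = 0.239). Baz2a, which with Smarca5 forms the NoRC complex that silences ribosomal RNA genes, rose instead: it measured 8.22 and 8.29 under vorinostat and 7.40 and 7.36 under DMSO (1.83-fold higher, change 0.87, SE 0.08, adjusted p = 0.00109). Its other 2 probe sets rose by 0.70 and 0.66, and the rise passed without any one of the arrays.

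The CHD family, taken here as every member with a Chd symbol and so including Chd1l, was mixed. Of its 8 measured members 3 were lower (37.5%), 2 higher (25%) and 3 not passing, with a median of 0.12. These shares are near those of all genes above the median probe set level, where all 8 lay (28.2% lower and 28.7% higher). The range was from -1.95 (Chd1l) to 1.05, and apart from Chd1l the lowest was Chd1 at -0.73. With single arrays left out, 1 fell without Vorinostat 1 or Vorinostat 2 and 2 fell without DMSO 1 or DMSO 2, whereas 2 rose without DMSO 1 and 1 without any of the others. Beside Chd1l, described above, Chd1 fell. This ATPase reads trimethylated lysine 4 of histone H3 through its chromodomains and measured 6.49 and 6.50 with vorinostat and 7.38 and 7.07 with DMSO (change -0.73, SE 0.12, adjusted p = 0.00808). Of its other 3 probe sets, 2 fell (-0.72 and -0.67) and 1 was at 0.28 (adjusted p = 0.0783), and the call was lost without Vorinostat 1 (-0.72, adjusted p = 0.0846) or Vorinostat 2 (-0.74, adjusted p = 0.0773). Chd9 fell by 0.47 at its brightest probe set and rose by 0.43 at a dimmer one. That dimmer probe set lay close to the background limit under DMSO (3.65 and 3.71, limits 3.54 and 3.75). The direction of Chd9 thus depends on the probe set. Its fall was lost without any one of the 4 arrays (-0.58 to -0.36) and under reference scaling (-0.10, adjusted p = 0.4104).

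Chd6, a remodeller linked to the response to oxidative damage, rose most of all members. Its values were 6.42 and 6.25 in vorinostat arrays and 5.34 and 5.23 in DMSO arrays (2.07-fold higher, change 1.05, SE 0.10, adjusted p = 0.00113), and the rise passed without any one of the arrays. Chd8, which is frequently mutated in autism, was at 8.50 and 8.49 with vorinostat and 8.18 and 7.99 with DMSO (change 0.41, SE 0.10, adjusted p = 0.0271). It passed only without DMSO 1 among the omissions (0.31 to 0.51), its other 3 probe sets were at -0.41, -0.15 and 0.05 and did not pass, and the mean over all 4 was at -0.02. Chd2 was at 0.46 (adjusted p = 0.0645) and rose by 0.59 at its second probe set. Chd7, mutated in CHARGE syndrome, was at 0.08 and rose by 0.38 at a dimmer probe set. That probe set lay close to the background limit under DMSO (3.84 and 3.73, limits 3.54 and 3.75). Chd5, best known from neurons, was at 0.16 (95% confidence interval -0.21 to 0.53).

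In the group of INO80, SRCAP and EP400, 7 of 9 genes fell and 0 rose by limma, and 4 (without DMSO 1) or 5 fell with single arrays left out. The other 2 were Ep400, with an unadjusted p of 0.0307, and Ino80b, with one of 0.468. Of all genes above the median probe set level, where all 9 lay, 28.2% fell and 28.7% rose. The motor Ino80 had 6.45 and 6.44 with vorinostat and 6.99 and 6.94 with DMSO (change -0.52, SE 0.08, adjusted p = 0.00553), and its second probe set also fell (-1.23). Among the omissions the call held only without DMSO 2 (-0.54 to -0.49), and it was lost under reference scaling (-0.15, adjusted p = 0.149). Srcap, the motor that places H2A.Z into nucleosomes, measured 4.86 and 5.02 under vorinostat and 6.07 and 5.92 under DMSO (2.08-fold lower, change -1.05, SE 0.10, adjusted p = 0.00135), with a second probe set that fell (-1.01). Ep400, the related motor of the TIP60 complex, was at 7.76 and 7.91 with vorinostat and 8.33 and 8.06 with DMSO. Its change of -0.36 (SE 0.12, 95% confidence interval -0.68 to -0.05, adjusted p = 0.0826) did not pass, and none of its 7 probe sets was called (0).

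Ruvbl2, which forms a joint ring with Ruvbl1, was at 9.14 and 9.002 with vorinostat and 9.51 and 9.54 with DMSO (change -0.46, SE 0.09, adjusted p = 0.0129), against -1.59 for Ruvbl1. The Ruvbl2 call held only without Vorinostat 1 among the omissions (-0.52 to -0.39) and was lost under reference scaling (-0.09, adjusted p = 0.423), and the difference between both genes was not tested. The INO80 subunits Ino80d, Ino80e and Ino80c fell, with changes of -0.86, -0.84 and -0.63. Both other probe sets of Ino80e also fell (-0.80 and -1.71), while among the omissions the call of Ino80d held only without Vorinostat 2 (-1.11 to -0.61). Ino80b was at 0.09 (95% confidence interval -0.20 to 0.37, adjusted p = 0.623).

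Of the remaining SNF2-type ATPases, Smarcad1 fell and Atrx and Smarcal1 did not pass at their brightest probe sets. Smarcad1, which helps to restore silent chromatin behind the replication fork, had 7.04 and 7.19 with vorinostat and 8.32 and 8.30 with DMSO (2.28-fold lower, change -1.19, SE 0.09, adjusted p = 0.000613). Atrx, which deposits histone H3.3 at repeats together with Daxx, measured 8.33 and 8.63 under vorinostat and 8.89 and 8.66 under DMSO (change -0.29, SE 0.14, 95% confidence interval -0.64 to 0.06, adjusted p = 0.182). The groups were barely separated, but all 7 probe sets of Atrx lay below 0 and 4 of them fell (-0.66 to -0.53). The mean over the 7 probe sets was -0.47 (adjusted p = 0.017). Smarcal1, an annealing helicase of stalled forks, was at 0.06 (adjusted p = 0.637) and rose by 0.92 at a second, dimmer probe set.

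None of the 6 other ARID genes fell (0 by limma, and 0 with an unadjusted p under 0.05 and a negative change), and 1 rose. Of all genes 18.9% fell and 20.9% rose, so counts over 6 genes do not set this group apart from them. Arid4b, a subunit of the SIN3 histone deacetylase complex, had 8.49 and 8.27 with vorinostat and 7.57 and 7.55 with DMSO (1.77-fold higher, change 0.82, SE 0.10, adjusted p = 0.0029). The rise passed without any one of the arrays, and 3 of its other 5 probe sets rose by 0.56 to 0.68. Its paralogue Arid4a was at 0.05 (95% confidence interval -0.20 to 0.30). The transcription factors Arid3a and Arid5b and the RNA-binding Arid5a were at 0.28, 0.24 and 0.33 (adjusted p from 0.0713 to 0.0904), a dimmer Arid5b probe set rose by 0.82, and Arid3b and Ino80dos lay near background in both groups. Under reference scaling 62.3% of all genes rose, among them all 6 of these ARID genes, 5 of 8 CHD genes, Ino80b, Smarcal1 and the near-background Smarca1.

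Over the 129 probe sets taken singly, 58 fell, 14 rose and 57 did not pass, whereas 15.7% of all probe sets fell and 16.5% rose (32.2% called in either direction). Among the members, 21 probe sets lay near background in both groups and 0 of them was called. Of the 35 genes with more than 1 probe set, 22 had at least 2 that were called, and Chd9 was the 1 gene with calls in both directions. The counts over probe sets depended on the arrays: 38 fell without DMSO 1 and 37 without Vorinostat 1, and 7, 8 and 7 rose without DMSO 2, Vorinostat 1 and Vorinostat 2.

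**Figure D3:**
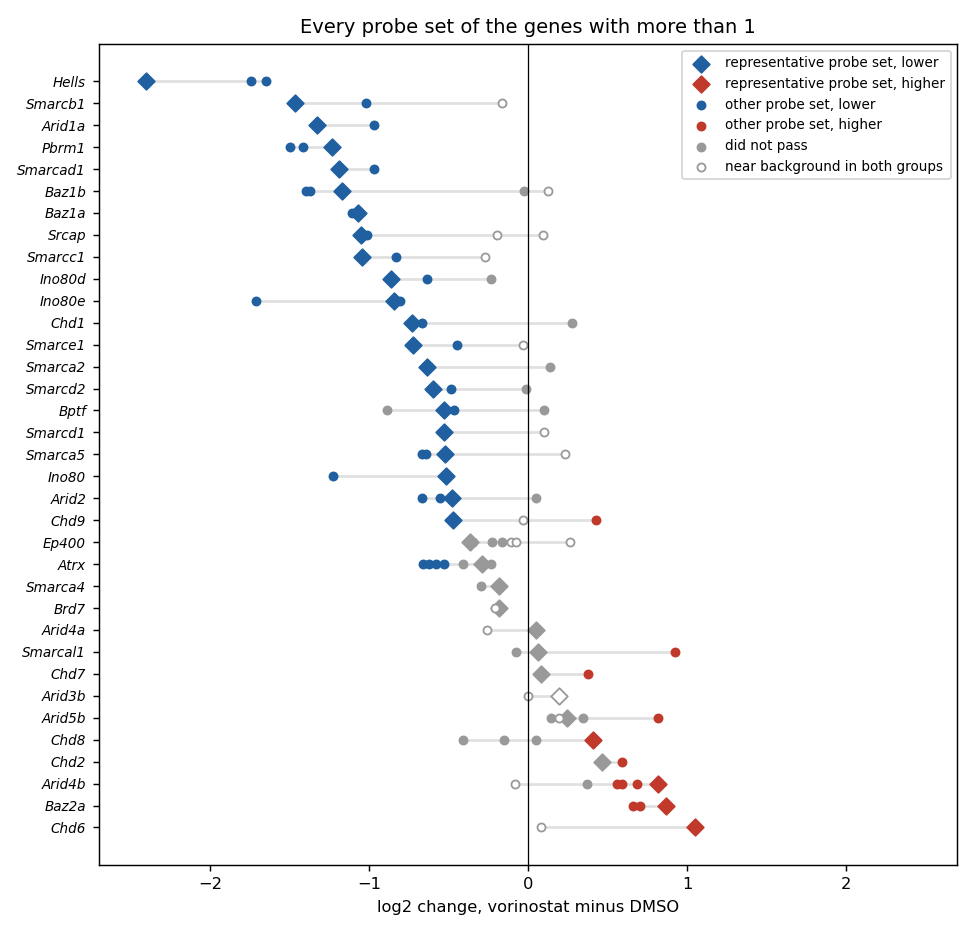
Log2 change (vorinostat minus DMSO) of every probe set of the 35 remodeller genes with more than 1, with diamonds for the brightest probe set and open symbols near background in both groups. Called probe sets of a gene lie on the same side of 0 except in Chd9 (-0.47 and 0.43).

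**Figure D4:**
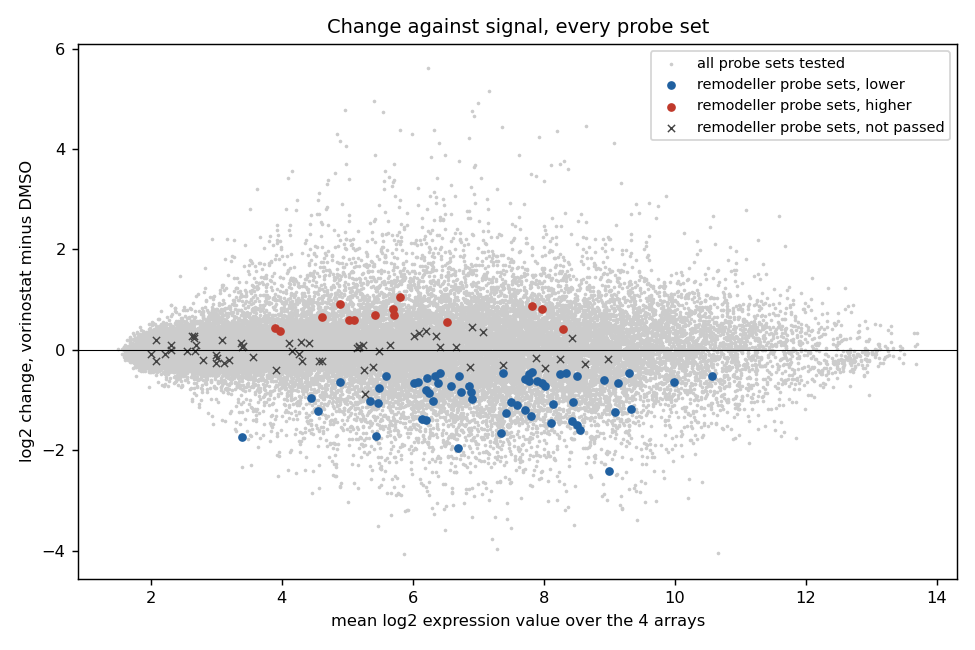
Log2 change (vorinostat minus DMSO) against the mean log2 value over the 4 arrays for the 45037 probe sets tested (grey) and the 129 remodeller probe sets (coloured by call). The 58 that fell reach from dim to bright signal, with Hells (-2.41) as the lowest.

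Genes that work with the remodellers were followed through lists chosen with earlier results of these data known. Beside the counts of each list stand the shares over all genes, of which 18.9% fell and 20.9% rose. Among genes above the median probe set level these were 28.2% and 28.7%, and under reference scaling 11.3% of all genes fell and 62.3% rose. Of 15 further SWI/SNF subunits, 6 fell and 0 rose by limma, with a median of -0.08, and under reference scaling 5 fell and 8 rose, with a median of 0.28. The 3 BCL7 proteins fell most (Bcl7c -1.71, Bcl7b -1.398 and Bcl7a -1.35), and the actin-like subunit Actl6a measured 8.63 and 8.59 with vorinostat and 9.76 and 9.77 with DMSO. Of 8 further ISWI subunits, 7 fell, among them Baz2b (-1.34), the histone-fold subunit Pole4 (-1.23) and the histone-binding Rbbp7 (-0.93). Only 3 or 4 of these fell with any single array left out, 3 without DMSO 1, where Baz2b was lost (-1.24), and 4 without each of the others, and under reference scaling 4 fell and 1 rose. Of 20 measured subunits of INO80, SRCAP and TIP60 complexes, 10 fell and 1 rose, with a median of -0.44, and under reference scaling 8 fell and 5 rose, with a median of -0.07. The scaffold Epc1 (-1.27), the acetyl-lysine reader Yeats4 (-1.16) and the bromodomain protein Brd8 (-1.04) fell most, and the INO80 subunit Nfrkb rose by 0.34, a call lost without any one of the arrays (0.27 to 0.41).

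The histone variant pair that SRCAP and EP400 complexes handle moved apart. H2az1 had 10.69 and 10.69 with vorinostat and 11.73 and 11.71 with DMSO (change -1.04, SE 0.08, adjusted p = 0.00057), whereas H2az2 had 10.44 and 10.27 with vorinostat and 9.59 and 9.62 with DMSO (change 0.75, SE 0.09, adjusted p = 0.00295). In the list of 14 measured histone variants and chaperones, 9 fell (6 without DMSO 1) and H2az2 was the 1 that rose, and under reference scaling 7 fell and 3 rose. The chaperone Nasp (-1.95), the chromatin assembly subunit Chaf1b (-1.44) and the chaperone Nap1l1 (-1.29) fell most, while Daxx, the partner of Atrx, was at 0.19 (adjusted p = 0.214). Of 7 partners of Hells, 5 fell and 1 rose, and under reference scaling 5 fell and 2 rose. Cdca7, which brings Hells to chromatin, measured 6.65 and 6.46 under vorinostat and 8.75 and 8.70 under DMSO (change -2.17, SE 0.10, adjusted p = 0.000222). Uhrf1, which recognises hemimethylated DNA, and the maintenance methyltransferase Dnmt1 also fell (-2.10 and -1.67), whereas Zbtb24, a zinc-finger protein that activates Cdca7, rose by 0.55, a call lost without DMSO 1 (0.45), Vorinostat 1 (0.62) or Vorinostat 2 (0.48).

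**Figure D5:**
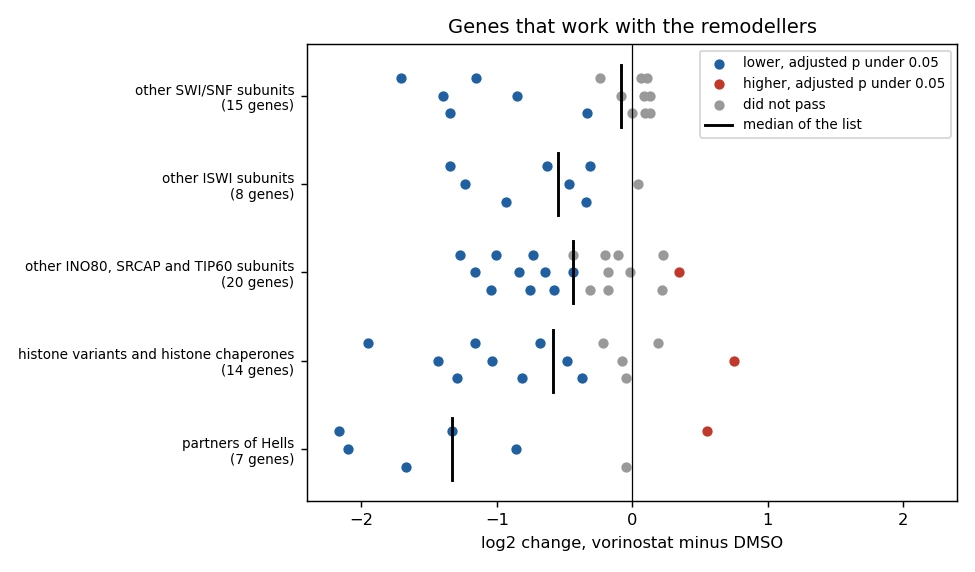
Log2 change (vorinostat minus DMSO) of single genes in 5 lists of remodeller partners, coloured by the limma call, with the median of each list as a black bar. The partners of Hells have the lowest median (-1.33) and the further SWI/SNF subunits the highest (-0.08).

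Neurons exchange several SWI/SNF subunits for neuronal paralogues as they leave the cell cycle. In these arrays the proliferative forms Actl6a, Ss18 and Phf10 fell (-1.16, -0.85 and -0.34), and Dpf2 did not pass (-0.24, adjusted p = 0.0899). Phf10 lost its call without any one of the 4 arrays (-0.35 to -0.32) and under the replicate block, and was at 0.03 under reference scaling, whereas Actl6a and Ss18 passed in all of these. The neuronal forms did not pass: Actl6b lay near background in both groups, and Dpf1, Dpf3 and Ss18l1 were at 0.09, 0.13 and 0.09 (adjusted p from 0.303 to 0.539). Of 6 neuronal marker genes, 3 rose (Map2 by 2.62, Syt1 by 1.90 and Tubb3 by 1.70). Rbfox3, above background in both groups, was at -0.00205 (adjusted p = 0.993), and Snap25 and Nefl lay near background in both groups. The summed log2 level of the 6 markers was 30.2 to 30.9 with vorinostat and 24.1 to 24.3 with DMSO. The part of this in the subunit changes was not tested.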

How the data were processed

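The authors deposited 1 log2 expression value per probe set and array, made with RMA in the Transcriptome Analysis Console, per the submitters' processing notes, with no version. RMA, as defined, equalises the intensity distributions of arrays, so a shift common to every transcript is invisible here. No genome build was stated, so no coordinates or sequences are printed, and precision is limited by having 4 arrays. Of 45101 probe sets, 64 controls were left out. The platform annotation gave 1 symbol to 34945, several to 932 (among them a probe set naming Ino80, left out) and none to 9160.

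The vorinostat arrays were set against the DMSO arrays with limma 3.58.1 (R 4.3.3), using lmFit and eBayes, whose prior had 3.26 degrees of freedom. Two-sided p-values were adjusted by Benjamini-Hochberg across the 45037 other probe sets, with a threshold of 0.05. The script was tested on simulated data with 200 of 45037 probe sets changed. It recovered 0% of log2 changes of 0.5, 26.9% of changes of 1 and 79.1% of changes of 2, with 0 false calls. Far fewer probe sets were changed there than were called here, so these shares do not carry over directly. Confidence intervals are 95% and unadjusted. Near background means within 1 log2 unit of the highest tryptophan control on every array of a group.

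Named in full were the 10 largest falls and rises past the threshold and the core ATPases. Of each partner list, up to 3 falls and 3 rises were named. Other probe sets, markers and paralogues outside that rule were named after their values were seen. Members and lists were chosen with earlier results of these data known. Alternatives covered scaling, probe set filters, variance models, a replicate block and each array left out. Replicate numbers 1 and 2 occur in both groups but the labels do not say that they pair samples.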

Additional observations from a re-analysis of the deposited data

How the results depend on the processing

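The counts of remodeller genes were recomputed under 14 alternatives. With any single array left out, which leaves 1 array in a group, fewer of all genes fell and fewer rose too. The 28 genes that fell became 18 to 22 with single arrays left out, the lowest without Vorinostat 1, and the 4 that rose became 3 to 4. Of the 32 called genes, 19 passed in all 4 omissions, 16 of them lower and 3 higher, and 2 (Smarca2 and Chd9) in none. The 58 probe sets that fell became 37 (without Vorinostat 1) to 45 and the 14 that rose 7 (without DMSO 2 or Vorinostat 2) to 11. Scaling on the 7 reference genes measured of 9 listed, whose mean change was -0.37, moved the median of all genes from 0.03 to 0.40 and that of the remodeller genes to -0.11, with 15 remodeller genes and 46 of their probe sets higher and 19 genes lower. Under it 62.3% of all genes rose and 11.3% fell. Without Gusb and Polr2a, which fell, the other 5 had a mean of -0.08, and 8 remodeller genes rose and 27 fell, an alternative added after the data were seen. Also 8 genes rose when only probe sets brighter than the median were tested (46 genes) and with a gene taken as the mean of its probe sets. Signs turned in genes that had not passed: under reference scaling Atrx was at 0.0765, Brd7 at 0.19, Ep400 at 0.00572, Ino80dos at 0.14, Smarca4 at 0.18 and Smarcc2 at 0.0169. Arid4a was at -0.0119 with arrays centred on their median and -0.0563 as a mean of its probe sets, and ranged from -0.0351 to 0.132 over the omissions. Smarcal1 was at -0.000275 under centring, and Ino80b ranged from -0.0345 to 0.209 over the omissions. Among called genes, Chd8 was at -0.0249 as a mean of its probe sets, and Phf10 at 0.0303 under reference scaling and Smarca2 at 0.14 without probe sets ending in _s_at, _x_at or _a_at, where its dimmer probe set stands for it. A replicate block, which pairs arrays of the same number, gave 3 genes higher and 25 lower, with Bptf, Chd8, Chd9 and Ino80d lost. Deviations of same-numbered arrays had a correlation of -0.06, and other ISWI subunits went to 4 lower under the block.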
